A study of Mus musculus with 6 samples.

Results

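The genes described here were 10 members of the semaphorin, plexin and neuropilin families, Sema4a, Sema4b, Sema4d, Sema6d, Plxna1, Plxnb2, Plxnc1, Plxnd1, Nrp1 and Nrp2. They were chosen by symbol as axon guidance genes that macrophages express, and made up 10 of the 55335 mouse genes in the expression table. Their levels were compared between 3 libraries of bone marrow-derived macrophages (BMDMs) that, by their labels, had shared a culture with Cd177 wild-type (WT) neutrophils and 3 that had shared one with Cd177 knockout (KO) neutrophils. All BMDMs carried the genotype label WT. They had been grown from bone marrow for 7 days in 25 ng/ml macrophage colony-stimulating factor, and the neutrophils came from spinal cord lesions at 3 days post-injury (dpi) and were enriched with magnetic beads. After 24 h of co-culture the macrophages were sorted as Ly6G- cells, so each library was meant to hold macrophage RNA only. CD177 is a surface protein found mainly on neutrophils. The comparison asked how macrophage transcripts differed after contact with neutrophils that had or lacked it. Below, WT and KO name the label of the neutrophils and never the macrophages. The labels do not say whether replicates 1 to 3 came from separate cultures or mice, so the spread between them may be technical.

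Semaphorins are secreted or membrane-bound cues that were first known for repelling growing axons and that also steer the migration, adhesion and activation of immune cells. Plexins are their signalling receptors and act through small GTPases to change the cytoskeleton and integrin adhesion. Neuropilins have short intracellular parts and serve as co-receptors, which bind secreted semaphorins together with A-type plexins and also bind vascular endothelial growth factors. Macrophages and microglia carry several plexins, and semaphorins accumulate in the scar of an injured spinal cord, which is why these families are followed in this tissue.

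Values were FPKM, which count fragments relative to transcript length and to the size of the library, a scale on which levels of different genes can be set side by side. The FPKM values of a library summed to between 302532 and 340717. The smallest steps between low values gave an estimate of between 17454600 and 20254300 fragments per library. It is rough, since 29.6% to 32.5% of those values fell no more than 0.1 from a whole number of steps, and chance gives 20%. All 10 genes of a macrophage marker list were detected, with a summed level of 6729 to 8111 FPKM in WT and 7343 to 8051 FPKM in KO. Of these, Cd14 (1010 to 99.4 FPKM, means) and Fcgr1 (121 to 33.8 FPKM) were called lower in KO and Adgre1 and Mertk higher. Neutrophil markers summed to 199 to 259 FPKM in WT and 542 to 555 FPKM in KO, with 9 of 11 tested genes higher and 1 lower in KO. Lymphocyte markers summed to 2.32 to 3.37 FPKM in WT and 19.0 to 20.6 FPKM in KO. Fibroblast markers summed to 404 to 574 FPKM in WT and 483 to 542 FPKM in KO, spinal cord markers to 16.4 to 18.6 FPKM in WT and 21.2 to 22.6 FPKM in KO, and endothelial markers to 3.42 to 5.48 FPKM in WT and 3.60 to 4.75 FPKM in KO. Dendritic cell markers summed to 0.610 to 1.24 FPKM in WT and 0.314 to 0.664 FPKM in KO, and Flt3 was at 0 in all 6 libraries, as were Mog, Olig2, Snap25 and Aqp4 of the spinal cord list. Cd177 itself read 0.544, 0.309 and 0.521 FPKM in WT and 1.79, 1.84 and 2.28 FPKM in KO, and Ly6g, the marker of the sort, read 0 in all WT libraries and 0.660, 0.547 and 0.403 FPKM in KO. Cd177 was thus called higher in the libraries labelled KO (log2 fold change 1.37, limma adjusted p = 0.000827), against the direction of the label, although the sorted cells were labelled genotype WT. Every direction below rests on the labels as given. The part of these other cells in the results below was not tested, and in bulk RNA fewer cells of a type and less RNA per cell cannot be told apart. Replicate 3 of each group stood apart from replicates 1 and 2, more so in WT, and long transcripts read lower in it, so the members and the gene lists are also given without both replicate 3 libraries. That fit keeps only replicates 1 and 2 of each group and was chosen after their spread was seen. Its smaller errors and adjusted p-values follow in part from that choice and are not stronger evidence.

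Each gene was tested with limma on log2(FPKM + 0.5), two-sided, and p-values were adjusted by Benjamini-Hochberg over all 13367 genes that averaged 0.5 FPKM or more. A gene was called when its adjusted p was under 0.05. All 10 members passed the filter on low values. Of these, 6 were called higher in KO (Sema4b, Sema6d, Plxnb2, Plxnc1, Plxnd1 and Nrp1) against 27.1% of all tested genes, and 1, Sema4a, was called lower against 10.5%. Sema4d, Plxna1 and Nrp2 did not pass. The groups did not overlap for the same 7 genes, 6 with every KO library above every WT library (37.5% of all tested genes) and 1 below (14.4%). The median log2 fold change of the 10 members was 0.60, beside 0.19 for all tested genes. The background therefore leaned toward KO, and 72.0% of all called genes were higher in KO.

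That lean depended on how libraries were scaled to each other. When size factors were set by the median of ratios, the median of all tested genes was -0.00046 and 49.3% of called genes were higher in KO. Under this scaling 1 member, Nrp1, was called higher (16.1% of all tested genes) and Sema4a and Sema4d were called lower (16.6%). Without both replicate 3 libraries, 5 members (Sema4b, Plxnb2, Plxnc1, Plxnd1 and Nrp1) were called higher against 33.5% of tested genes, and Sema4a and Sema4d lower against 14.5%. Leaving out 1 library at a time, the number of members called higher was 0 without KO replicate 1, 1 without KO replicate 2, 3 without KO replicate 3, 4 without WT replicate 1 or 2, and 5 without WT replicate 3. The share of all tested genes called higher in these fits was 18.2%, 18.2%, 21.3%, 20.6% and 22.2%, and 31.6%, in the same order. Without KO replicate 1, limma still gave 5 members higher at an unadjusted p under 0.05. The study applied a fold change above 2 with an unadjusted p under 0.05. With the fold taken on log2(FPKM + 0.5), Sema4a alone was past it, lower in KO, while 6 members were higher at the p-value alone. Of all tested genes, 6.68% were past it higher in KO and 4.43% lower. The share of all tested genes at an unadjusted p alone was not counted in any fit. As deposited it cannot be below the 27.1% called higher, since an adjusted p is never under its unadjusted p. With the fold taken as the plain ratio of mean FPKM, Sema6d, at 2.09 times the WT mean, was also past the study's threshold, higher in KO. The share of all tested genes past the threshold by that ratio was not counted.

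**Figure D1:**
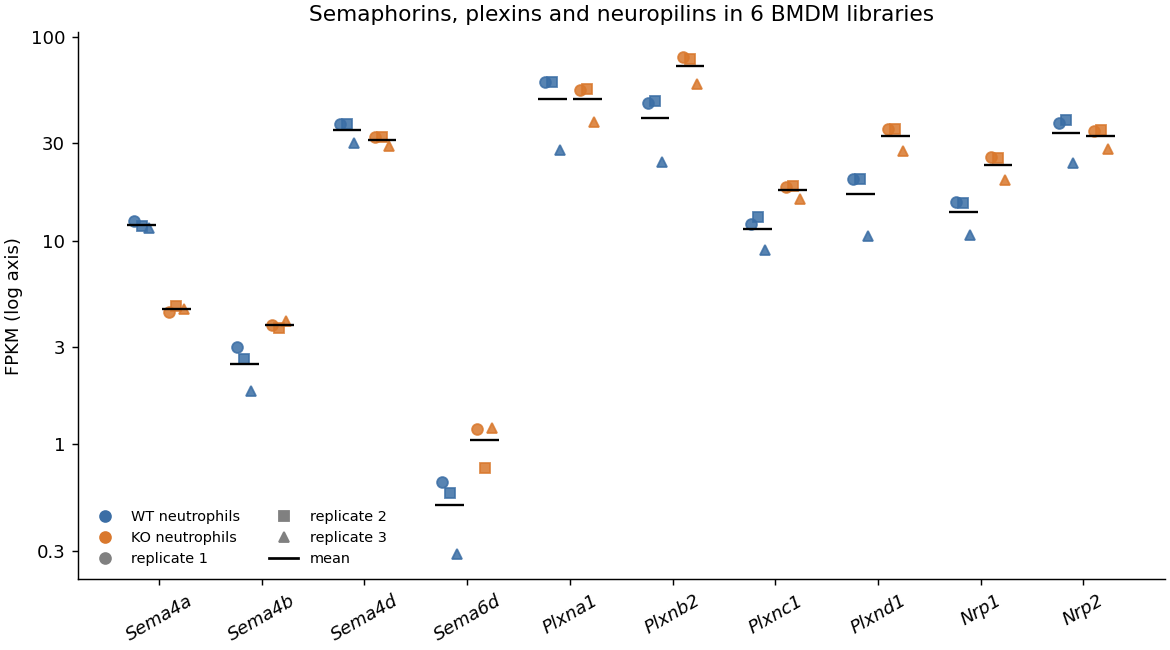
FPKM (log axis) of the 10 members in the 6 BMDM libraries, with WT neutrophils in blue, KO neutrophils in orange, the replicate number given by the marker shape and the group mean (n = 3) by a bar. Sema4a lies between 11.5 and 12.4 FPKM in WT and between 4.45 and 4.77 FPKM in KO, while replicate 3, drawn as a triangle, is the lowest WT library for every gene.

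The start regions of 3 members are shown here because these genes moved in opposite directions and hold matches to motifs of factors that act in activated macrophages. The sequences are the 250 bases upstream of an annotated start, from RefSeq (GRCm38.p6), written 5′ to 3′ on the strand of the gene. Capitals mark the motif match.

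Sema4a, chr3:88459102-88459351, minus strand: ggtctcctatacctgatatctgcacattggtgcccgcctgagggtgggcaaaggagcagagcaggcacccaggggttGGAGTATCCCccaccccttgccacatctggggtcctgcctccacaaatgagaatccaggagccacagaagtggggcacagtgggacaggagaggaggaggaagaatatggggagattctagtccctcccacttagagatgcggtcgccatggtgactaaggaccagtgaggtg

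Plxnc1, chr10:94944846-94945095, minus strand: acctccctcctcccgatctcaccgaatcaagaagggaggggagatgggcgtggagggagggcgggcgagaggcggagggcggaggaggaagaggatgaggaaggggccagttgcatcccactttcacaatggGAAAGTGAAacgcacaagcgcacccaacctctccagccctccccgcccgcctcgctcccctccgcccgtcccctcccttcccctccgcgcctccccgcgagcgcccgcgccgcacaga

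Plxnd1, chr6:115995006-115995255, minus strand: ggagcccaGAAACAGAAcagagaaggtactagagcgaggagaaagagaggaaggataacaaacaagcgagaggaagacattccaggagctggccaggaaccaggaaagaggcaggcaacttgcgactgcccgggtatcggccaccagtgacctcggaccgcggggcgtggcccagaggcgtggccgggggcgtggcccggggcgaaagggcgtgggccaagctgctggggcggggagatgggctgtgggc

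The match in the printed Sema4a window was to the NF-kB motif and lay at positions -173 to -164 from the start site, which is an internal start within the gene. Sema4a had other windows, and none held a match, also not the one at the upstream end of the gene (chr3:88461183-88461432). The matches in the Plxnc1 and Plxnd1 windows were to GAAANNGAA, a pair of half-sites of interferon regulatory factors, at positions -118 to -110 and -242 to -234. Windows of 250 bases before to 50 after a start were found for 9 of the 10 members, 17 windows in all, and not for Plxna1. Both strands were searched. The NF-kB motif was in 2 of the 17 windows, this one and one of Sema4b, a gene called higher in KO, where it lay at positions 7 to 16 after the start, and in 8.46% of all 32851 windows, and GAAANNGAA in 2 and in 8.56%. The E-box CACGTG was in 2 member windows, of Sema6d and Sema4b, and in 7.15% of all. TGANTCA, a loose form of the AP-1 motif that takes any middle base, was in 1, of Sema4d (as TGAATCA), and in 7.81%. The CRE TGACGTCA (1.79% of all windows) and the PU.1 motif GAGGAAGT (3.20%) were found in no member window. No match overlapped another, and a match describes these letters only.

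Gene positions below are from GENCODE on GRCm38, and exon numbers are those of the longest coding transcript. Among the semaphorins, which act as ligands and in part as receptors themselves, Sema4a fell. Sema4a (chr3:88435959-88461182, 15 exons) encodes a membrane semaphorin of antigen-presenting cells known for its part in T cell priming. It read 12.4, 11.8 and 11.5 FPKM in WT and 4.45, 4.77 and 4.62 FPKM in KO. All KO libraries lay well below all WT libraries, and replicate 3 did not stand apart for this gene. The KO mean was 0.388 times the WT mean, with a log2 fold change of -1.28 (SE 0.08, 95% interval -1.47 to -1.08, limma adjusted p = 6.81e-05), or -1.47 relative to the median of all genes. It was called lower under all 17 alternatives, with a log2 fold change between -1.48 and -1.2. Of the 10 members it had the largest absolute log2 fold change and the smallest adjusted p.

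Sema4d (chr13:51685529-51793747, 16 exons), also known as CD100, is shed from leukocytes and binds B-type plexins and CD72. It was the most abundant of the 4 semaphorins and read 37.4, 37.4 and 30.2 FPKM in WT and 32.1, 32.3 and 29.2 FPKM in KO. WT replicate 3 lay among the KO libraries, so the groups overlapped. The log2 fold change was -0.16 (SE 0.11, 95% interval -0.42 to 0.10, adjusted p = 0.298). Without WT replicate 3 it was -0.26 (adjusted p = 0.0310), without both replicate 3 libraries -0.21 (adjusted p = 0.0168) and with median-of-ratios scaling -0.37 (adjusted p = 0.0326), so that the call, but not the direction, turned on these choices.

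Sema4b (chr7:80186841-80226527, 15 exons), a close relative of Sema4a on the cell surface, was called in the other direction. It read 3.01, 2.61 and 1.82 FPKM in WT and 3.83, 3.71 and 4.05 FPKM in KO. Every KO library was above every WT library, and WT replicate 3 was the lowest of all. The log2 fold change was 0.57 (SE 0.16, 95% interval 0.18 to 0.96, adjusted p = 0.0333). It was 0.37 without both replicate 3 libraries (adjusted p = 0.0378) and 0.39 with median-of-ratios scaling (adjusted p = 0.111), and the call was lost without WT replicate 2 (adjusted p = 0.0630), KO replicate 1 (0.0904), KO replicate 2 (0.0813) or KO replicate 3 (0.0904).

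Sema6d (chr2:124089969-124667770, 18 exons) encodes a membrane ligand of Plxna1. It was the least abundant member, at 0.650, 0.577 and 0.289 FPKM in WT and 1.2, 0.769 and 1.2 FPKM in KO. The lowest KO library was only a little above the highest WT library. The KO mean was 2.09 times the WT mean, while the log2 fold change was 0.63 (SE 0.21, 95% interval 0.15 to 1.12, adjusted p = 0.0490), since the added 0.5 FPKM understates changes at this level. The call was lost in 13 of 16 alternatives, among them the fit without both replicate 3 libraries (0.40, adjusted p = 0.162). Left out in turn, only KO replicate 2 kept it (adjusted p = 0.0475), and without WT replicates 1, 2 and 3 and KO replicates 1 and 3 the adjusted p was 0.0599, 0.0804, 0.0851, 0.147 and 0.131. Summed over the 4 semaphorins, the level was 53.4, 52.4 and 43.8 FPKM in WT and 41.5, 41.5 and 39.1 FPKM in KO, lower in every KO library. Most of that sum was Sema4d (mean 35.0 FPKM in WT and 31.2 FPKM in KO), but the mean of Sema4a fell further (11.9 to 4.61 FPKM).

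The plexin receptors split, with 3 higher in KO and Plxna1 showing no call. Plxnd1 (chr6:115954811-115995005, 36 exons), whose window is printed above, is a receptor for Sema3e and for Sema4a. It read 20.2, 20.02 and 10.6 FPKM in WT and 35.3, 35.4 and 27.5 FPKM in KO. Replicate 3 was the lowest library of each group, yet KO replicate 3 still exceeded all WT libraries. The KO mean was 1.94 times the WT mean, with a log2 fold change of 0.98 (SE 0.26, 95% interval 0.37 to 1.59, adjusted p = 0.0239), or 0.79 relative to the median of all genes. Without both replicate 3 libraries it was 0.80 (adjusted p = 0.000494) and with median-of-ratios scaling 0.77 (adjusted p = 0.0541). The call was lost without KO replicate 1 (adjusted p = 0.0760) or KO replicate 2 (0.0769).

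Plxnb2 (chr15:89155549-89180788, 38 exons) is a receptor for several membrane semaphorins, Sema4d among them. It was the most abundant plexin in KO, at 47.5, 48.2 and 24.3 FPKM in WT and 79.5, 77.8 and 58.5 FPKM in KO. Replicates 1 and 2 agreed closely within each group, and replicate 3 was lower in both. The log2 fold change was 0.89 (SE 0.28, 95% interval 0.23 to 1.55, adjusted p = 0.0436). Without both replicate 3 libraries it was 0.71 with a smaller error (SE 0.04, adjusted p = 0.000527), and with median-of-ratios scaling 0.68 (adjusted p = 0.0998). Without WT replicate 3 alone it was 0.57 (adjusted p = 0.0222). The adjusted p was 0.0513 without WT replicate 1, 0.124 without KO replicate 1, 0.122 without KO replicate 2 and 0.0533 without KO replicate 3.

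Plxnc1 (chr10:94790866-94944835, 31 exons), whose window is also printed above, is the receptor of Sema7a. It read 12.0, 13.1 and 9.01 FPKM in WT and 18.2, 18.6 and 16.1 FPKM in KO. Here too the groups did not overlap, and replicate 3 deviated less than for the other plexins. The log2 fold change was 0.62 (SE 0.15, 95% interval 0.27 to 0.97, adjusted p = 0.0160). It was 0.54 without both replicate 3 libraries (adjusted p = 0.00369) and 0.42 with median-of-ratios scaling (adjusted p = 0.0612), and the call was lost without KO replicate 1 (adjusted p = 0.0591) or KO replicate 2 (0.0606).

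Plxna1 (chr6:89316314-89362620, 32 exons) is the partner of neuropilins for secreted semaphorins and the receptor of Sema6d. It read 60.1, 60.2 and 27.8 FPKM in WT and 54.8, 55.2 and 38.2 FPKM in KO. All KO libraries lay between WT replicate 3, the lowest, and WT replicates 1 and 2, the highest, so the groups overlapped. The log2 fold change was 0.06 (SE 0.32, 95% interval -0.69 to 0.82, adjusted p = 0.891). Without both replicate 3 libraries the value was -0.13 (SE 0.04, adjusted p = 0.0551), and with median-of-ratios scaling -0.15 (adjusted p = 0.75). The 4 plexins together came to 140, 142 and 71.7 FPKM in WT and 188, 187 and 140.2 FPKM in KO, with KO replicate 3 at the level of WT replicates 1 and 2.

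The neuropilins differed from each other in the same way. Nrp1 (chr8:128358604-128503363, 17 exons), a co-receptor for Sema3a and for Vegfa, read 15.5, 15.3 and 10.7 FPKM in WT and 25.6, 25.4 and 19.9 FPKM in KO. The lowest KO library exceeded the highest WT library. The KO mean was 1.71 times the WT mean, with a log2 fold change of 0.76 (SE 0.17, 95% interval 0.35 to 1.17, adjusted p = 0.0135), or 0.57 relative to the median of all genes. With median-of-ratios scaling it was 0.55 (adjusted p = 0.0409) and without both replicate 3 libraries 0.71 (adjusted p = 0.000802). The adjusted p was 0.0526 without KO replicate 1 and 0.0523 without KO replicate 2.

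Nrp2 (chr1:62703285-62818695, 16 exons), which binds Sema3f and Vegfc, read 38.0, 39.0 and 23.9 FPKM in WT and 34.5, 35.1 and 28.1 FPKM in KO. The groups overlapped, and as for Plxna1 all KO libraries lay between WT replicate 3 and WT replicates 1 and 2. The log2 fold change was -0.02 (SE 0.20, 95% interval -0.50 to 0.46, adjusted p = 0.948). Without both replicate 3 libraries it was -0.15 (adjusted p = 0.0561). A call of lower in KO was made only after correction of each library for transcript length and GC content (log2 fold change -0.26, adjusted p = 0.0232). Together the neuropilins came to 53.4, 54.3 and 34.6 FPKM in WT and 60.0, 60.5 and 48.0 FPKM in KO.

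**Figure D2:**
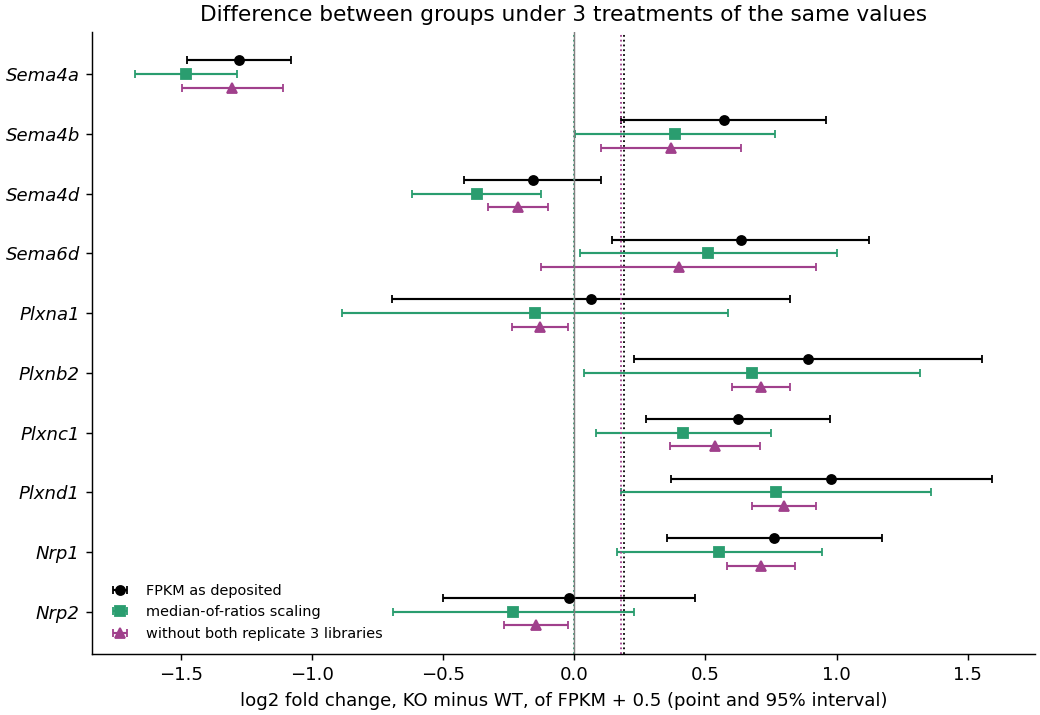
Log2 fold change (KO minus WT, of FPKM + 0.5) of each member with its 95% interval from limma, from deposited FPKM, from median-of-ratios scaled values and without both replicate 3 libraries; dotted lines give the median of all tested genes in each. The intervals of Plxnb2, Plxnd1 and Plxna1 narrow without replicate 3, from an SE of 0.32 to 0.04 for Plxna1, and Sema4a lies at -1.28, -1.48 and -1.30.

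Ordered by level, the 4 most abundant members in WT were Plxna1 (49.4 ± 18.7 FPKM, SD, n = 3), Plxnb2 (39.99 ± 13.6), Sema4d (35.0 ± 4.17) and Nrp2 (33.6 ± 8.45), whose ranges overlapped from each to the next. Plxnd1 (16.9 ± 5.51), Nrp1 (13.8 ± 2.70), Sema4a (11.9 ± 0.479) and Plxnc1 (11.4 ± 2.11) followed, again with overlapping neighbours, and then Sema4b (2.48 ± 0.609) and Sema6d (0.505 ± 0.191). In KO the order was Plxnb2 (71.9 ± 11.7), Plxna1 (49.4 ± 9.70), Plxnd1 (32.7 ± 4.55), Nrp2 (32.6 ± 3.83) and Sema4d (31.2 ± 1.72), of which the last 3 overlapped. Nrp1 (23.6 ± 3.23), Plxnc1 (17.6 ± 1.35), Sema4a (4.61 ± 0.161), Sema4b (3.86 ± 0.169) and Sema6d (1.05 ± 0.248) came after. Plxnb2 thus stood first in KO and behind Plxna1 in WT, and Plxnd1 moved from the group of Nrp1 to that of Nrp2 and Sema4d. Sema4a moved from the level of Nrp1 and Plxnc1 to just above Sema4b, without overlap in KO (4.45 to 4.77 against 3.71 to 4.05 FPKM).

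Ratios of 2 members within a library do not change with any scaling between libraries. They were compared after the values had been seen, for 6 pairs of related genes. Each pair set a called member over a member not called (Plxna1, Nrp2 or Sema4d), so separation of the groups was largely built into the choice. The ratios are thus no separate support for the calls. The ratio of Plxnb2 to Plxna1 was 0.789, 0.801 and 0.873 in WT and 1.45, 1.41 and 1.53 in KO, so Plxnb2 was below Plxna1 in all WT libraries and above it in all KO libraries. For Plxnd1 to Plxna1 the values were 0.335, 0.332 and 0.379 in WT and 0.644, 0.642 and 0.719 in KO. The ratio of Plxnc1 to Plxna1 was 0.1997, 0.217 and 0.324 in WT and 0.333, 0.337 and 0.421 in KO, where WT replicate 3 came close to the KO libraries. That of Nrp1 to Nrp2 was 0.407, 0.391 and 0.447 in WT and 0.742, 0.724 and 0.707 in KO. Sema4a to Sema4d was 0.332, 0.315 and 0.380 in WT and 0.139, 0.148 and 0.158 in KO, a fall to 0.433 times the WT mean. Sema4b to Sema4d was 0.0807, 0.0699 and 0.0603 in WT and 0.120, 0.115 and 0.139 in KO. None of the 6 ratios overlapped between groups. Each upper gene was itself without overlap, as were 37.5% (higher in KO) and 14.4% (lower) of all tested genes. The share of other gene pairs without overlap was not counted. Each ratio had an exact permutation p of 0.1 (two-sided), the smallest that 3 against 3 libraries can give, and 0.1 again after Benjamini-Hochberg adjustment over the 6. The replicate 3 libraries, which stood apart in the levels, lay near the others of their group in the ratios of Plxnb2 and Plxnd1 to Plxna1 and of Nrp1 to Nrp2.

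**Figure D3:**
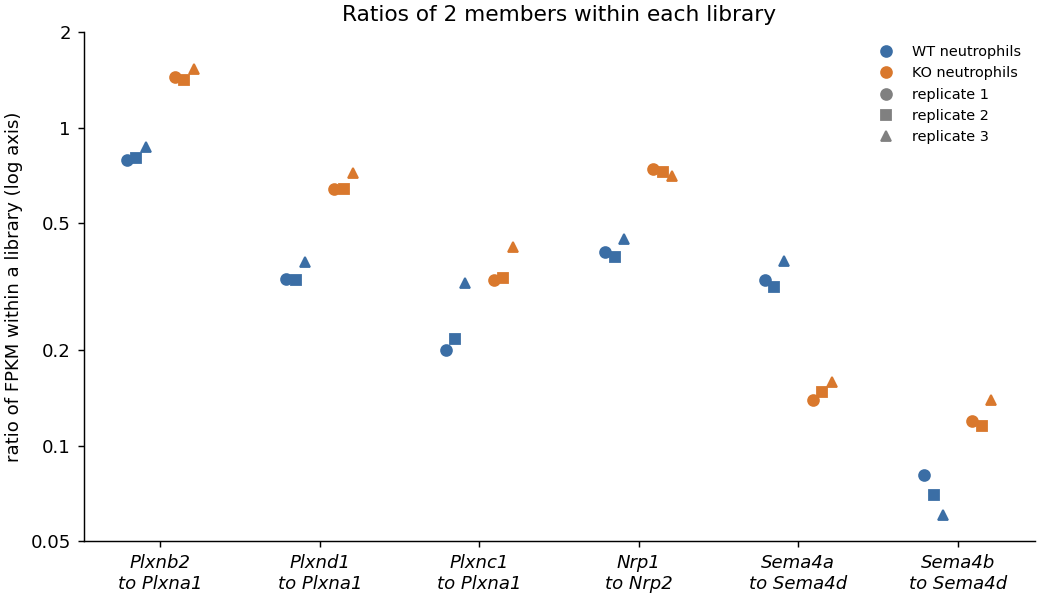
Ratio of the FPKM of 2 members within each library (log axis) for 6 pairs, with WT neutrophils in blue, KO neutrophils in orange and the replicate number given by the marker shape. Plxnb2 to Plxna1 runs from 0.789 to 0.873 in WT and from 1.41 to 1.53 in KO, and no pair overlaps between the groups. In each pair the upper gene was called and the lower gene was not.

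Replicate 3 differed from replicates 1 and 2 by transcript length. Over genes averaging 5 FPKM or more, the median log2 difference between replicate 3 and the mean of replicates 1 and 2 ran in WT from 0.44 for transcripts up to 1000 bases to -0.62 for those above 8000 bases, and in KO from 0.09 to -0.34. The members have long transcripts, from 3205 bases for Sema4a to 9034 bases for Plxna1. In WT the difference was -1.10 for Plxna1, -0.96 for Plxnb2, -0.90 for Plxnd1, -0.68 for Nrp2 and -0.45 for Plxnc1, against -0.52, -0.42, -0.36, -0.30 and -0.19 in KO. In WT, Plxnb2, Plxnd1, Nrp2, Plxnc1 and Sema6d fell in a length class with a median of -0.44 and Plxna1 in one with -0.62, and all 6 lay below their class median. Sema4a, Nrp1 (3597 bases) and Sema4b (3949 bases) fell in a class with a median of -0.08 in WT and 0.00 in KO. Sema4a differed by -0.07 in WT and 0.00 in KO, while Nrp1 and Sema4b differed by -0.50 and -0.51 in WT. In KO, Nrp1 differed by -0.35 and Sema4b by 0.09. Sema6d differed by 0.21 in KO, where its class median was -0.22. By class median, replicate 3 thus read lower for long transcripts in both groups, and more so in WT. The size of the shift varied between members.

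**Figure D4:**
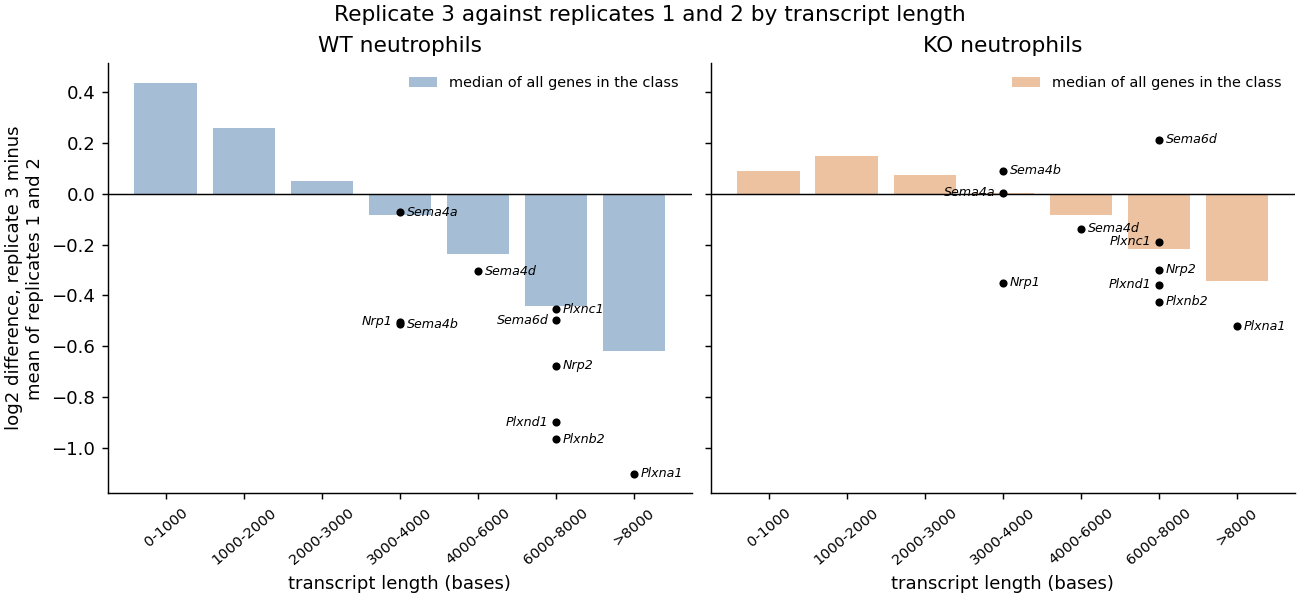
Log2 difference between replicate 3 and the mean of replicates 1 and 2, in WT (left) and KO (right), by transcript length in bases; bars give the class median over genes averaging 5 FPKM or more and points the members, drawn at the middle of their class. The bars fall from 0.44 to -0.62 in WT, and Plxna1, the longest member, lies at -1.10 in WT and -0.52 in KO.

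Beside the 10 members, 21 further genes of the families were listed, of which 9 reached a mean of 0.5 FPKM and were tested. Of these, 3 (Sema3a, Sema3f and Plxna3) were called higher in KO and 1 (Sema7a) lower, beside 27.1% and 10.5% of all tested genes, and Sema3c, Sema4c, Sema6b, Plxna2 and Plxnb1 were not called. Sema7a, the ligand of Plxnc1 and a GPI-anchored semaphorin of lymphocytes and myeloid cells, was the most abundant of them. It read 36.3, 35.1 and 29.8 FPKM in WT and 24.9, 23.04 and 23.3 FPKM in KO, lower in every KO library (log2 fold change -0.49, SE 0.10, adjusted p = 0.00866). It was also lower without both replicate 3 libraries (-0.56, adjusted p = 0.00260) and with median-of-ratios scaling (-0.71, adjusted p = 0.00171). The secreted ligands Sema3a and Sema3f were scarce in WT. Sema3a, which binds Nrp1, was 0.283 ± 0.0528 FPKM in WT and 1.25 ± 0.227 FPKM in KO (SD, n = 3, log2 fold change 1.15, adjusted p = 0.00161). Sema3f, which binds Nrp2, was 0.376 ± 0.0987 FPKM in WT and 1.10 ± 0.140 FPKM in KO (0.87, adjusted p = 0.00489). Plxna3, a receptor for secreted semaphorins, was 0.665 ± 0.177 FPKM in WT and 1.36 ± 0.179 FPKM in KO (0.68, adjusted p = 0.0170). Sema3c, at 1.95 ± 0.0228 FPKM in WT and 1.51 ± 0.0986 FPKM in KO, had a log2 fold change of -0.29 (adjusted p = 0.0689), and -0.45 with median-of-ratios scaling (adjusted p = 0.0164). Of 9 tested without both replicate 3 libraries, 4 were called higher and 1 lower (33.5% and 14.5% of all tested genes). Of the 12 genes under the filter, 1, Sema5b, was at 0 in all libraries.

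Sema4f and Plxnb3 were also under the filter and are named because of their values. Sema4f read 0.476, 0.705 and 0.722 FPKM in WT and 0.0876, 0.0465 and 0.0512 FPKM in KO. When all genes were tested without the filter, its log2 fold change was -1.01 (limma adjusted p = 0.00384). Plxnb3 went the other way, at 0.1004, 0.0667 and 0.101 FPKM in WT and 0.734, 0.787 and 0.793 FPKM in KO (1.11, adjusted p = 0.00114 without the filter). Both were far below Plxnb2 and Sema4d in level.

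**Figure D5:**
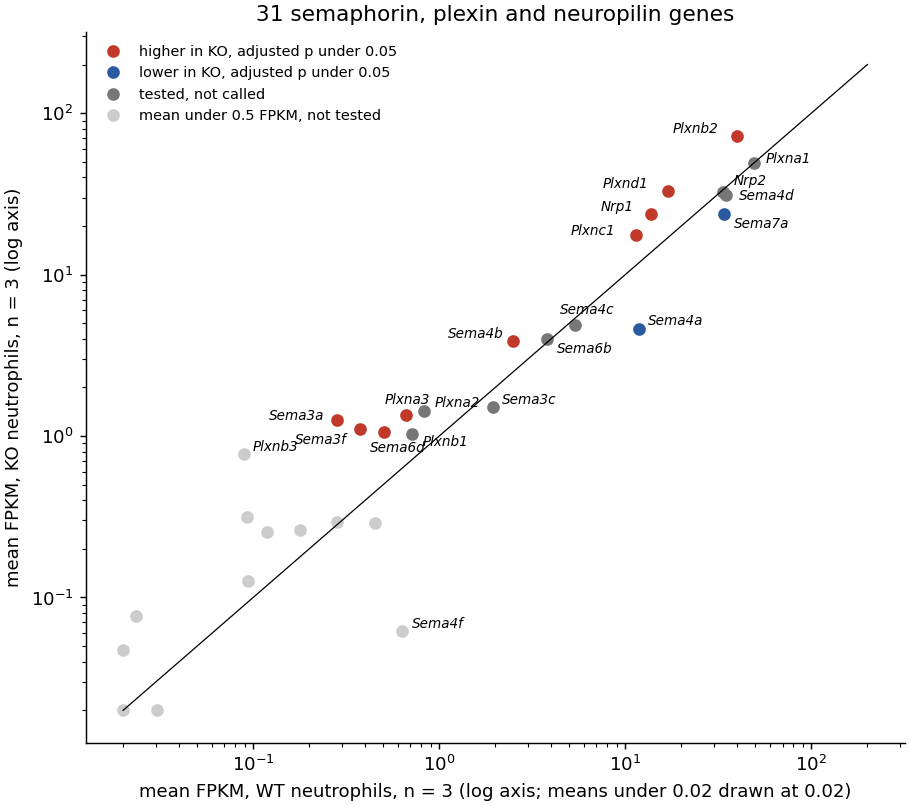
Mean FPKM in WT (x) and in KO (y), n = 3 each, both on log axes, for the 31 listed semaphorin, plexin and neuropilin genes, coloured by the limma call; the line marks equal levels. Sema4a, at 11.9 FPKM in WT and 4.61 FPKM in KO, and Sema7a lie below the line among the abundant genes, and Plxnb2, Plxnc1, Plxnd1 and Nrp1 above it.

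The list of genes that bind these receptors or shed their ligands held calls in both directions. Of 22 listed, 16 were tested, 5 were called higher in KO and 6 lower (27.1% and 10.5% of all tested genes), and the median log2 fold change was -0.02. Vegfa, the growth factor that Nrp1 also binds, fell most, from 118 ± 7.53 FPKM in WT to 20.5 ± 0.153 FPKM in KO (log2 fold change -2.49, adjusted p = 3.55e-06). Vegfc, a ligand of Nrp2, fell from 2.75 ± 0.270 to 0.850 ± 0.106 FPKM (-1.27, adjusted p = 0.000409). Met, a receptor tyrosine kinase that associates with B-type plexins, fell from 4.06 ± 0.919 to 1.14 ± 0.212 FPKM (-1.46, adjusted p = 0.00129). Trem2, which signals with Plxna1 and Tyrobp in response to Sema6d, rose from 86.3 ± 9.62 to 138 ± 12.5 FPKM (0.68, adjusted p = 0.00383). The other 4 called higher, named after their values were seen, were Tyrobp (0.44), Tgfb1 (0.55), Itgb1 (0.25) and Vegfb (0.32, each as log2 fold change). With median-of-ratios scaling 2 genes were called higher and 6 lower (16.1% and 16.6% of all tested genes), and without both replicate 3 libraries 4 and 6 of 18 tested (33.5% and 14.5%). Kdr, called lower, is also on the endothelial marker list. Of the shedding proteases Adam10, Adam17 and Mmp14, named after their values were seen, only Mmp14 was called, lower in KO (-0.46, limma adjusted p = 0.00682).

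Of 37 genes that act downstream of plexins, 34 were tested, 14 were called higher in KO and 1 lower (27.1% and 10.5% of all tested genes), with a median log2 fold change of 0.29. Rnd3, a small GTP-binding protein that binds plexins, rose from 5.04 ± 0.387 FPKM in WT to 12.0 ± 0.194 FPKM in KO (log2 fold change 1.18, adjusted p = 0.000135). Mras, a Ras-family GTPase, rose from 1.68 ± 0.329 to 4.43 ± 0.680 FPKM (1.18, adjusted p = 0.00169). Mical1, an enzyme that oxidises actin filaments, rose from 3.60 ± 0.710 to 8.13 ± 0.795 FPKM (1.09, adjusted p = 0.00203), and the kinase Fyn from 5.57 ± 0.590 to 12.1 ± 1.91 FPKM (1.04, adjusted p = 0.00155). The gene called lower was Msrb1, which reverses the oxidation of actin by MICAL proteins and was named after its value was seen (-1.04, adjusted p = 0.00165). The GTPase genes Rhoa and Rac1 did not pass, with log2 fold changes of 0.02 (adjusted p = 0.908) and 0.30 (adjusted p = 0.0632). With median-of-ratios scaling 10 genes were called higher and 1 lower (16.1% and 16.6% of all tested genes), and without both replicate 3 libraries 20 and 2 (33.5% and 14.5%).

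Genes of the other guidance families were counted for comparison. Of 41 netrin, Slit, ephrin and related genes, 17 were tested, and with limma 6 were called higher in KO and 0 lower, beside 27.1% and 10.5% of all tested genes. At an unadjusted p under 0.05 there were 8 higher and 1 lower, a cut at which the share of all tested genes was not counted. With median-of-ratios scaling 4 were called higher and 1 lower (16.1% and 16.6% of all tested genes). The counts were 7 and 2 without both replicate 3 libraries (33.5% and 14.5%). Among called genes averaging 1 FPKM or more, the largest changes were in Efnb1, a membrane ephrin (10.6 ± 1.65 FPKM in WT, 20.4 ± 0.523 FPKM in KO, log2 fold change 0.93, adjusted p = 0.00153), and Ntn4, a laminin-related netrin (1.05 ± 0.119 and 2.36 ± 0.249 FPKM, 0.89, adjusted p = 0.00191). Efnb2 (0.70, adjusted p = 0.00379) and Slit1 (0.52, adjusted p = 0.0375) followed, and Slit1 was not called with median-of-ratios scaling (adjusted p = 0.102). Of the members, 6 of 10 were called higher, and the difference between these lists was not tested.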

How the data were processed

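RNA-seq values of 6 BMDM libraries were analysed, 3 per group. The values are FPKM, which the authors deposited for 55335 mouse Ensembl genes. The submitters' processing notes name fastp 0.17.1, HISAT2 2.1.0, DESeq2 1.18.1 and R 3.4.3, while the tool behind the FPKM values, its annotation and its genome build are not given in the sources used here. For RNA extraction, library preparation and sequencing, the labels name other products than the methods. FPKM is relative to the total of a library, so a change in abundant genes moves all others. Low values did not resolve into whole reads, so count tests were not used.

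Symbols, positions and transcript lengths were taken by gene identifier from GENCODE release 21 (GRCm38), which held 55154 (99.7%) of the identifiers. limma 3.58.1 in R 4.3.3 (lmFit, eBayes with trend) was fitted without covariates to log2(FPKM + 0.5) of the 13367 genes averaging 0.5 FPKM or more, with Benjamini-Hochberg adjustment, after a test on simulated data. Exact permutation tests were used for ratios. Python 3.11.15 with pandas 2.3.3, numpy 2.4.6, scipy 1.17.1 and matplotlib 3.10.9 was used for the rest.

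Alternatives were pseudocounts of 0.1 and 1, no filter, a filter of 5 FPKM, 3 other scalings (median-of-ratios, upper-quartile, TPM), robust variance, a replicate block, each library left out and the study's threshold. The length and GC correction, the fit without both replicate 3 libraries and the ratios were added after seeing the data. The members, the gene and marker lists and the motifs were chosen with earlier results of these data known. Named genes were all members and, in each other list, up to 4 called genes with the largest change, non-overlapping groups and an average of 1 FPKM or more. Family genes averaging 0.5 FPKM or more could also be named.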

Additional observations from a re-analysis of the deposited data

How the results depend on the processing

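Sema4a was called lower under all 17 alternatives. Over its alternatives Nrp1 kept its call in 15 of 17, Plxnc1 in 14, Plxnd1 in 13 and Plxnb2 in 9, Sema4b in 8 of 16 and Sema6d in 3 of 16, and none of these 6 changed direction. Plxna1, not called, turned from 0.06 to -0.15 (median-of-ratios scaling), -0.023 (upper-quartile), -0.22 with length and GC correction and -0.13 without both replicate 3 libraries, and ranged from -0.30 to 0.25 when 1 library was left out. Nrp2 ranged from -0.25 to 0.10 when 1 library was left out.

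Members called higher, 6 as deposited, numbered 2 without the filter, 1 with median-of-ratios, 3 with upper-quartile and 3 with TPM scaling, 0 at the study's threshold with the fold on log2(FPKM + 0.5) (6 at the unadjusted p alone, and Sema6d past it by the plain ratio of means) and 0 to 5 with 1 library left out. The share of all tested genes called higher was 27.1% as deposited, 11.3% without the filter, 21.5% with upper-quartile scaling and 26% with TPM scaling. It was 16.1% with median-of-ratios scaling, 6.68% at the study's threshold and 18.2% to 31.6% with 1 library left out. At an unadjusted p alone, the share of all tested genes was not counted in either direction. Members called lower, 1 as deposited, numbered 2 with median-of-ratios scaling, 3 with length and GC correction and 2 without both replicate 3 libraries. With 1 library left out they numbered 1 to 2. In the same order, 10.5%, 16.6%, 19.3% and 14.5% of all tested genes were called lower, and 7.95% to 12.7% with 1 library left out. Further family genes called higher, 3 as deposited, numbered 0 at a mean of at least 5 FPKM, where few were tested. At the study's threshold, with the fold on log2(FPKM + 0.5), 1 was past it, Sema3a. With the plain ratio of means, Sema3a (4.41 times WT), Sema3f (2.93) and Plxna3 (2.04) were all past the threshold. The share of all tested genes past it by that ratio was not counted. Further family genes called lower, 1 as deposited, numbered 2 without the filter, 2 with median-of-ratios and 2 with upper-quartile scaling. They numbered 3 with length and GC correction and 0 at the study's threshold, where limma still gave 2 at the unadjusted p. Of all tested genes, 25.7% were called higher at a mean of at least 5 FPKM, and 4.72% were called lower without the filter. With upper-quartile scaling 12.3% were called lower, and at the study's threshold 4.43%. Binding partners called higher went from 5 to 2 with median-of-ratios and with upper-quartile scaling. Other guidance genes called lower went from 0 to 1 with median-of-ratios scaling. All tested genes called higher, 3619, became 1756 at a mean of at least 5 FPKM, 2156 with median-of-ratios scaling and 893 at the study's threshold. Those lower, 1408, became 2215, 2580 with length and GC correction and 592 at the study's threshold. The cause of these differences was not tested.

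With the replicate number as a replicate block, 5 members were called higher and 1 lower (31.8% and 12.6% of all tested genes). The limma adjusted p fell to 0.00177 for Nrp1, 0.00475 for Plxnd1, 0.00568 for Plxnc1 and 0.00609 for Plxnb2. It rose to 0.000577 for Sema4a, 0.0385 for Sema4b and 0.0637 for Sema6d, whose call was lost. Downstream genes called lower went from 1 to 2 and other guidance genes lower from 0 to 1. Same-numbered libraries deviated together with correlations of 0.116, 0.036 and 0.264, and WT replicate 1 correlated best with KO replicate 2, so the numbers were not taken as pairs. The deposited values hold no counts, so counting error is not known, for Sema6d and other genes under 1 FPKM among them.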
